A study of Mus musculus with 6 samples.

Results

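A set of 10 cytokine genes was examined, the IL-6 family members Il6, Il11, Lif, Osm, Il27 and Ebi3, together with Il10 and the colony-stimulating factors Csf1, Csf2 and Csf3. They were chosen by hand with earlier results of these data known, as were the other gene lists below. The shares of all genes beside their counts are therefore a description. By symbol, all 10 were found among the 21720 symbols of the table and among the 14963 genes that passed the filter on low counts. Bulk RNA-seq was performed on subcutaneous tumours of H22, a mouse hepatocellular carcinoma cell line, grown in wild-type female BALB/c mice of 6 to 8 weeks. The control group received 0.5% carboxymethyl cellulose sodium and the luteolin group 200 mg/kg luteolin, a plant flavonoid, by daily gavage of 0.2 mL for 21 days, starting at a tumour volume of about 50 mm3. Each group gave 3 libraries, and the labels do not say that each came from its own mouse, so p values measure the spread between these libraries. The host mice were immunocompetent, and a library holds RNA of tumour cells and of host cells together.

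IL-6, IL-11, LIF and oncostatin M (Osm) each bind a receptor that contains gp130 (Il6st), and the bound receptor activates JAK kinases and the transcription factor STAT3. IL-27 is a heterodimer of p28 (Il27) and EBI3, while IL-10 binds its own receptor pair, also signals through STAT3 and restrains macrophages and dendritic cells. CSF-1, GM-CSF (Csf2) and G-CSF (Csf3) sustain macrophages, myeloid cells and neutrophils, and in tumours these cytokines are known to shape the myeloid infiltrate.

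Total counts ranged from 61081637 to 80442954 per library, and levels are given in CPM, for which each count was divided by its library total after TMM normalization. Values of the 3 libraries of a group are listed in the order of replicates 1, 2 and 3. The deposited counts are estimates and 44.8% of values from 1 to 40 were multiples of 4, so 1 unit need not be 1 read pair, and a count of 0 allows up to 3 counts, or 12 where 1 pair counts as 4. Such limits cover counting error only. Luteolin replicate 2 stood apart, with a summed level of 6 keratinocyte markers of 7976 CPM against 351 and 14.8 in luteolin replicates 1 and 3 and 3.23 to 4.34 in the controls. Of all tested genes, 34.0% had their highest value in that library. Values without it are given beside many of the results that it moved. The 6 hepatocyte and hepatoma markers did not point one way. Afp had 59.4, 66.7 and 43.4 CPM in the controls and 32.7, 41.8 and 38.8 CPM in the luteolin libraries, and Gpc3 had 0.633 to 1.3 and 3.13 to 9.34 CPM. Alb had 3.06, 60.3 and 0.868 CPM in the controls and 133, 26.0 and 31.9 CPM in the luteolin libraries, while Ttr and Hnf4a had at most 24 and 20 counts in any library.

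By the study's threshold, which asks for a change over 2-fold with p under 0.05 before adjustment, 5 of the 10 cytokine genes were higher in the luteolin group in edgeR (Il6, Il11, Il27, Osm and Csf3) and 0 were lower. DESeq2, the tool of the study, and voom each passed 7, the same 5 with Il10 and Csf2. Over all genes tested in edgeR this threshold was passed by 11.3% in the higher and 1.52% in the lower direction. In the higher direction it was passed by 2004 of 17790 genes in DESeq2 and by 1752 of 14963 in voom. After Benjamini-Hochberg adjustment of edgeR's quasi-likelihood p values, 0 of the 10 genes were called at 0.05, where 1.34% of all genes were called higher and 0.187% lower. In the same edgeR test 7 of the 10 had an unadjusted p under 0.05, as did 3061 of all 14963 tested genes. DESeq2 called 5 of the 10 at an adjusted p under 0.05, all higher, and limma's voom called 6 higher and 1 lower. Over all genes, DESeq2 called 1543 higher and 415 lower of 17790, and voom called 1886 higher and 1311 lower of 14963. The 17790 are all genes with a count in any library, and DESeq2 can leave low-count genes without an adjusted p. In edgeR without luteolin replicate 2, and likewise without luteolin replicate 3, 1 of the 10 genes was called (Osm). Over all genes, these fits called 276 and 154 higher. Every luteolin library lay above every control library for 8 of the 10 genes and below for 1, against 15.9% and 12.8% of all tested genes. The median log2 fold change was 1.74 for the 10 genes and -0.0073 for all tested genes. In bulk tumour RNA, a change in the number of cells of a type and a change in RNA per cell cannot be told apart.

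**Figure D1:**
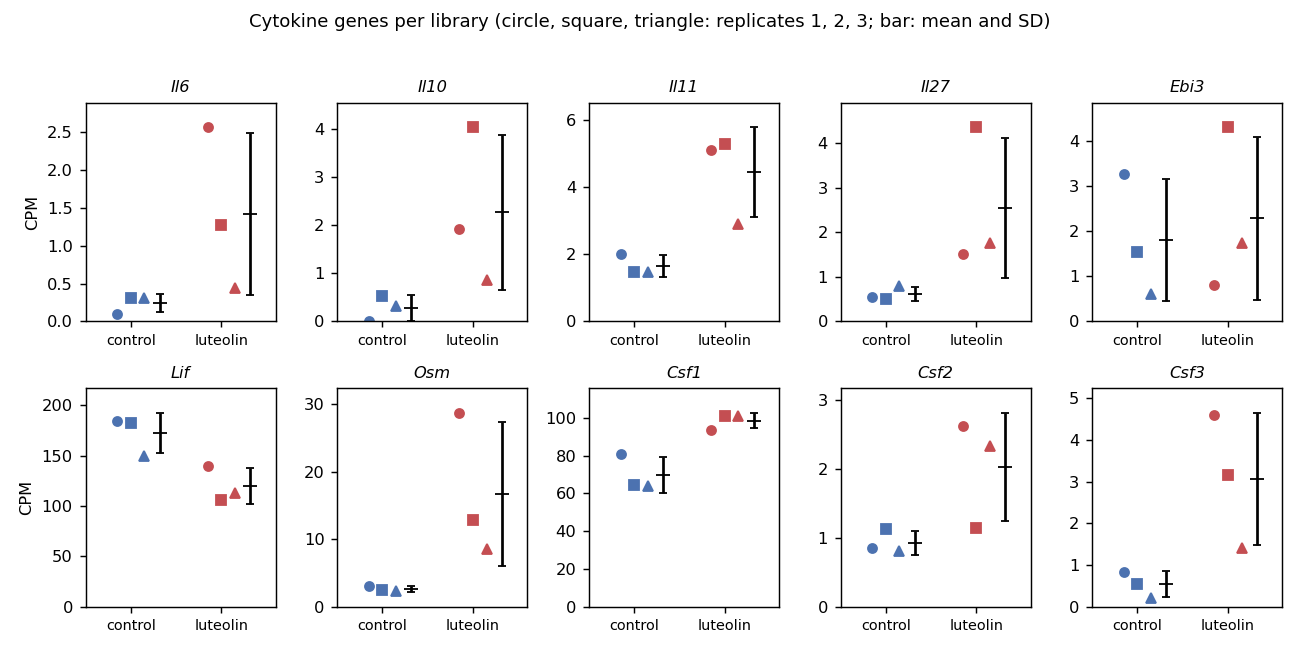
CPM of the 10 cytokine genes in each library (linear axes from 0, 1 panel per gene). Circles, squares and triangles are replicates 1, 2 and 3, and the bars to their right are the group mean and SD. The groups overlap for Ebi3 alone, and Lif is the gene whose luteolin libraries all lie below the controls.

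The promoter sequences below belong to the most abundant genes, Lif and Csf1, and to a pair of genes that were up-regulated at the study's threshold, Il6 and Il11. They are the 250 bases before the gene start in RefSeq (GRCm38.p6), in the direction of transcription, for 6 of the 10 genes that matched the table (Il6, Il11, Ebi3, Lif, Csf1 and Csf2, with 7 windows). Capitals mark letters that match a searched motif on either strand, overlapping matches included. The TATA box was searched as TATAAA. The AP-1 motif was searched as TGANTCA. The C/EBP motif was searched as TTGCNNAA and the STAT motif as TTCNNNGAA, beside a loose NF-kappaB pattern (a run of G, a spacer of any letters and a pair of C).
Il6, chr5:30012864-30013113, plus strand: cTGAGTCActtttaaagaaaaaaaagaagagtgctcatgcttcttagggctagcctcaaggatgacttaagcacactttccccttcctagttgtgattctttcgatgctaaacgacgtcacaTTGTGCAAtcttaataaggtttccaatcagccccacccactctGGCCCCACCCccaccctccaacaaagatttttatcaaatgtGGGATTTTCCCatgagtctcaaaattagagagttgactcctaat
Il11, chr7:4778142-4778391, minus strand: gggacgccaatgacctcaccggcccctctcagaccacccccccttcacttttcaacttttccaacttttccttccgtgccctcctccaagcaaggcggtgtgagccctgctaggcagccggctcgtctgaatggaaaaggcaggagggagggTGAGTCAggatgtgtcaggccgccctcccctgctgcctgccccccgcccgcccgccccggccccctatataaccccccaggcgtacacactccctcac
Lif, chr11:4257318-4257567, plus strand: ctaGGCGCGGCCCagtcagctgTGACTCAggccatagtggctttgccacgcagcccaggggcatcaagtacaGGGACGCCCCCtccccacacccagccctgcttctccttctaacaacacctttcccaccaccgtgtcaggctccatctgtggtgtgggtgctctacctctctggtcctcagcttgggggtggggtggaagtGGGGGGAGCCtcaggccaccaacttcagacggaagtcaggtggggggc
Csf1, chr3:107760470-107760719, minus strand: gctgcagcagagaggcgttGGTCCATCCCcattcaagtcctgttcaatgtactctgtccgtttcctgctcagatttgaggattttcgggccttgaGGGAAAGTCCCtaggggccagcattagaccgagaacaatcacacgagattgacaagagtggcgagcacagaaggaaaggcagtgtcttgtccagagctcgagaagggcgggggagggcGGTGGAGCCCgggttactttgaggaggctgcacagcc

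The Il6 window held 1 AP-1, 1 C/EBP and 3 NF-kappaB matches, of which an overlapping pair on opposite strands begins 44 bases before the start. The Il11 window shown held 1 AP-1 match, 98 bases before the start, and the other Il11 window held NF-kappaB matches alone. The Lif window held 1 AP-1 and 5 NF-kappaB matches, and the Csf1 window 4 NF-kappaB matches. In both windows some NF-kappaB matches overlap on opposite strands, so separate stretches are fewer than matches. Among 32851 RefSeq windows of 250 bases, 6.75% held the AP-1 letters, 9.56% the C/EBP letters, 45.8% the NF-kappaB letters, 7.02% the STAT letters and 12.4% the TATA box. The letters of the STAT motif and the exact letters TATAAA were found in 0 of the 7 windows. Other forms of the TATA box were not searched, and the Il11 window shown holds the letters tatataa. A match describes letters and does not show that a factor binds there.

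Lif, which encodes leukaemia inhibitory factor, was the most abundant of the 10 genes per transcript length in each group. It had 185, 183 and 150 CPM in the controls and 140, 106 and 113 CPM in the luteolin libraries. Every luteolin library lay below every control library. Means were 173 ± 19.8 CPM without and 120 ± 17.9 CPM with luteolin (SD, n = 3 each), which gave a log2 fold change of -0.52 (standard error 0.17, edgeR adjusted p = 0.16), which lies inside the 2-fold limit.

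Osm, a product of macrophages, neutrophils and T cells, showed the smallest p of the 10 genes. It had 3.08, 2.53 and 2.29 CPM in the controls and 28.7, 12.8 and 8.62 CPM in the luteolin libraries. The lowest luteolin library lay well above the highest control. Its log2 fold change was 2.66 (standard error 0.49, 6.33-fold), with an adjusted p of 0.0547 in edgeR's test, just short of 0.05. It was 2.02 without luteolin replicate 1, the library with the highest value, and 2.84 without luteolin replicate 2.

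Il6, the prototype of the family and a driver of the acute-phase response, was at the bottom of the range. It had 7, 20 and 20 counts in control replicates 1, 2 and 3 (0.1, 0.309 and 0.31 CPM) and 157, 106 and 28 counts in luteolin replicates 1, 2 and 3 (2.56, 1.27 and 0.438 CPM). The groups did not overlap, although luteolin replicate 3 lay close to the controls. The log2 fold change was 2.56 (standard error 0.83, edgeR adjusted p = 0.161), and it was 1.83 without luteolin replicate 1 and 2.17 without control replicate 1. In both of these fits Il6 no longer passed the study's threshold.

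Il11, a cytokine of stromal and epithelial cells, had 2.02, 1.47 and 1.47 CPM in the controls and 5.11, 5.29 and 2.91 CPM in the luteolin libraries. Its luteolin values were all higher than the controls, with a log2 fold change of 1.42 (standard error 0.4, edgeR adjusted p = 0.126). The estimate was steadier than that of Il6, at 1.29 to 1.61 over fits that each left out 1 library.

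Of the IL-27 subunits, Il27 was up-regulated at the study's threshold and Ebi3 was not called. Il27 had 0.558, 0.494 and 0.791 CPM in the controls and 1.52, 4.36 and 1.77 CPM in the luteolin libraries, a log2 fold change of 2.05 (standard error 0.58, edgeR adjusted p = 0.125). The value was 1.44 without luteolin replicate 2, in which Il27 was highest. Its exons overlap those of Apobr on the opposite strand, and reads of both genes cannot be told apart where strand is not counted. Apobr had 90.6 to 171 CPM and a log2 fold change of -0.37 (edgeR adjusted p = 0.404). Ebi3 had 3.28, 1.54 and 0.605 CPM in the controls and 0.816, 4.31 and 1.75 CPM in the luteolin libraries. The Ebi3 values of the groups overlapped throughout (log2 fold change 0.34, standard error 0.81, edgeR adjusted p = 0.863), and the estimate was -0.48 without luteolin replicate 2. Within a library, the log2 ratio of Il27 to Ebi3 was -2.49, -1.59 and 0.37 in the controls and 0.87, 0.016 and 0.013 in the luteolin libraries. The difference of 1.54 between the groups had p = 0.3 in a two-sided exact permutation test (0.4 adjusted over the 3 ratios tested), where 3 libraries against 3 cannot go below 0.1.

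Il10 had 0, 34 and 21 counts in the controls and 118, 337 and 55 counts in the luteolin libraries. In CPM, controls were at 0.0, 0.525 and 0.326 and the luteolin libraries at 1.93, 4.03 and 0.861. The groups were separate, but the spread between replicates was wide (log2 fold change 3.0, standard error 1.3, unadjusted p = 0.0544 and edgeR adjusted p = 0.254). Control replicate 1 had a count of 0, and fits that each left out 1 library gave 2.32 (without luteolin replicate 2) to 3.75 (without control replicate 2). Il10 passed the study's threshold without control replicate 1. The log2 ratio of Il6 to Il10 was 0.45 ± 1.49 in the controls and -0.72 ± 1.04 in the luteolin group (SD, n = 3 each). Their difference of -1.18 had p = 0.4 in the exact permutation test. This difference depends on the prior count and on the control library at 0. It was -1.75 with a prior count of 0.5 and -0.33 without control replicate 1.

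Among the colony-stimulating factors, Csf3 passed the study's threshold in edgeR, while Csf1 and Csf2 did not. DESeq2 also passed Csf2 at that threshold, and voom called both Csf1 and Csf2 at an adjusted p under 0.05. Csf3, the growth factor of neutrophils, had 0.844, 0.556 and 0.217 CPM in the controls and 4.6, 3.15 and 1.42 CPM in the luteolin libraries. All luteolin libraries exceeded the controls, with a log2 fold change of 2.50 (standard error 0.69, edgeR adjusted p = 0.121) and values of 2.08 to 2.94 with each library left out in turn.

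Csf1, the growth factor of macrophages, had 80.7, 64.5 and 63.8 CPM in the controls and 93.7, 101 and 101 CPM in the luteolin libraries. The luteolin values were close together and all above the controls, at 98.5 ± 4.14 against 69.7 ± 9.55 CPM (SD, n = 3 each). The log2 fold change was 0.50 (standard error 0.15, edgeR adjusted p = 0.145), and fits that each left out 1 library gave 0.43 to 0.59. With offsets for GC content and length it was 0.23 (edgeR adjusted p = 0.428). The log2 ratio of Csf1 to Il34, the other ligand of the CSF-1 receptor, was 1.63 ± 0.12 in the controls and 2.28 ± 0.34 in the luteolin group (SD, n = 3 each), a difference of 0.65 with p = 0.1 in the exact permutation test, the smallest that the design allows (0.3 adjusted over the 3 ratios).

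Csf2, which encodes GM-CSF, had 0.859, 1.13 and 0.806 CPM in the controls and 2.63, 1.14 and 2.33 CPM in the luteolin libraries. Luteolin replicate 2 was level with the highest control at 1.14 against 1.13 CPM, and the other two luteolin libraries were higher. The log2 fold change was 1.12 (standard error 0.49, unadjusted p = 0.0568 and edgeR adjusted p = 0.26), and 1.43 without luteolin replicate 2, when Csf2 also passed the study's threshold.

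**Figure D2:**
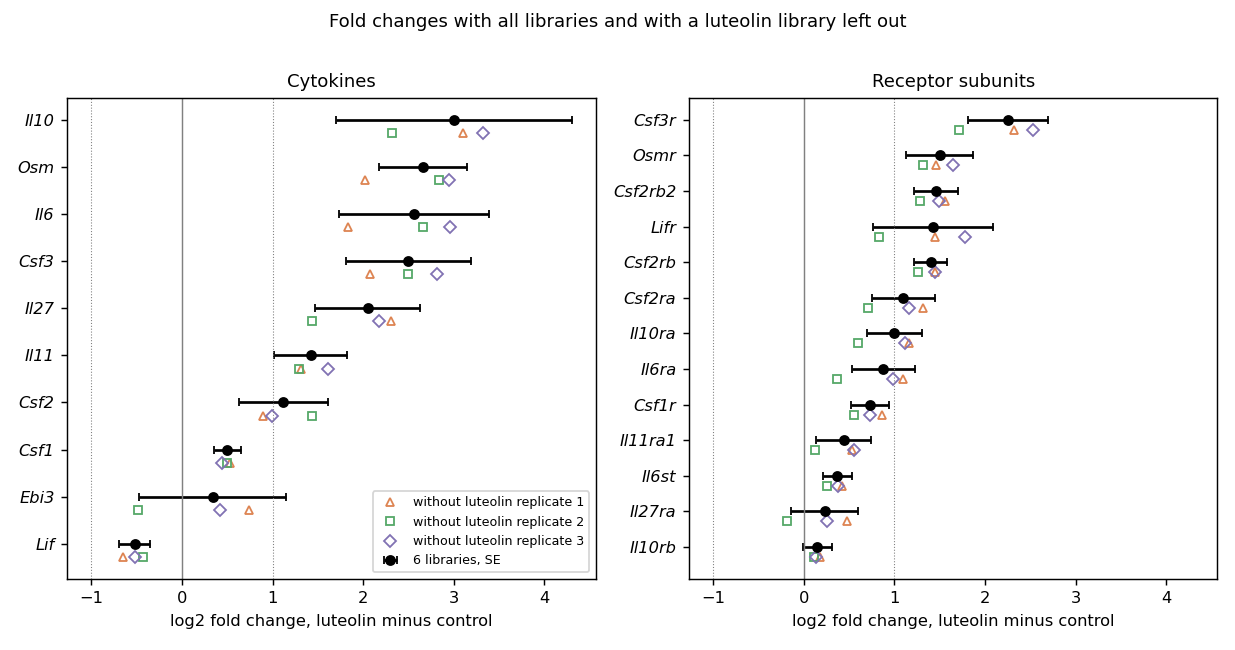
Log2 fold change (luteolin minus control) of the 10 cytokine genes and the 13 receptor genes. Black points are fits to all 6 libraries with their standard error, open symbols are fits without 1 luteolin library, and dotted lines mark a log2 fold change of 1 in either direction. Without luteolin replicate 2, the signs of Ebi3 and Il27ra turn to -0.48 and -0.18.

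Per kilobase of transcript, the order of mean levels in the control group was Lif, Csf1, Ebi3, Osm and Csf2, Il11, Il27, Csf3, Il10 and Il6. Lif had 42.9 ± 4.93 CPM per kilobase and Csf1 16.7 ± 2.29 (SD, n = 3 each), a gap well beyond their spread. Ebi3 came next at 1.57 ± 1.17, within whose spread lay Osm and Csf2, both at 1.16. Further down, the ranges of mean ± SD of neighbours overlapped, from Il11 at 0.848 ± 0.162 to Il6 at 0.102 ± 0.0516. The means of Il11 and Il27 (0.602 ± 0.153) each lay outside the range of the other. In the luteolin group, Lif at 29.8 ± 4.44 and Csf1 at 23.6 ± 0.991 CPM per kilobase were nearer to each other, and Osm came next at 7.35 ± 4.67. Csf2, Il27, Il11, Csf3, Ebi3 and Il10 followed between 2.54 and 1.74 and did not differ beyond their spread, and Il6 was last at 0.607 ± 0.457.

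Lif and Csf1 together held 89.7%, 91% and 91.9% of the summed level per kilobase of the 10 genes in the controls and 68.3%, 68.2% and 79.7% in the luteolin libraries. The other 8 genes made up 9.12% ± 1.12 of the sum in control and 27.9% ± 6.6 in luteolin tumours (SD, n = 3 each). Osm had the largest mean share of these 8 in the luteolin group, with 1.77% ± 0.0986 of the sum in the controls and 9.47% ± 4.93 in the luteolin group. The sum itself overlapped between the groups, at 57.1 to 72.7 CPM per kilobase in the controls and 65.5 to 83.8 in the luteolin group.

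**Figure D3:**
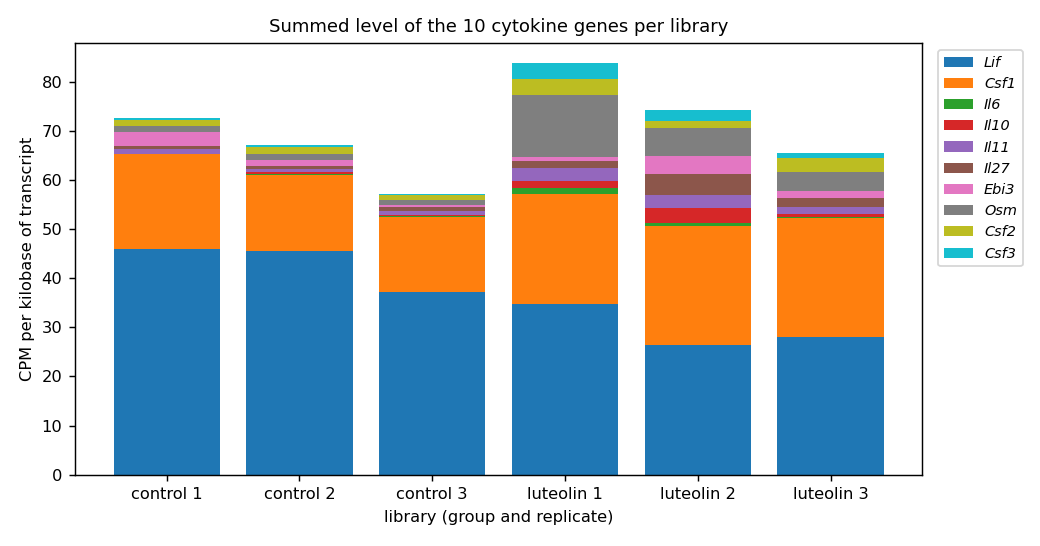
Level of the 10 cytokine genes in each library, in CPM per kilobase of the longest GENCODE M21 transcript, stacked by gene. Lif and Csf1 fill 89.7% to 91.9% of each control bar and 68.2% to 79.7% of each luteolin bar.

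The luteolin libraries did not rank alike across the genes. Il6, Osm, Csf2 and Csf3 were highest in luteolin replicate 1, where 7.22% of all tested genes had their highest value. Il10, Il11, Il27, Ebi3 and Csf1 were highest in luteolin replicate 2, and Lif was highest in control replicate 1. For each of the 10 genes, the tested gene with the most similar log2 CPM over the 6 libraries was sought by Pearson correlation, as a description in which the libraries fall into the treatment groups. The nearest genes were Rsad2 for Il6 (r = 0.9973), Pnma8c for Il10 (0.9990), Clmp for Il11 (0.9961), Fam214a for Il27 (0.9970) and Srrt for Ebi3 (0.9964). They were Rnf41 for Lif (r = 0.9911), Ackr2 for Osm (0.9892), Tshz3 for Csf1 (0.9957), Spry2 for Csf2 (0.9887) and Cyp4f18 for Csf3 (0.9885). All 10 genes had such a neighbour among the 14963 genes, at r = 0.9885 or more. Each r is the highest of many over only 6 libraries, and the best matches of other genes were not sought. Shared regulation was not tested. Srrt, the nearest gene of Ebi3, had 185 to 202 CPM over the 6 libraries and a log2 fold change of 0.0098.

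The receptor subunits of these cytokines were examined next, in a list of 13 genes that were all tested. At the study's threshold 5 were up-regulated (Osmr, Csf2ra, Csf2rb, Csf2rb2 and Csf3r) and 0 down-regulated, where 11.3% of all tested genes passed in the higher direction. In edgeR's test 2 were called higher at an adjusted p under 0.05 (Csf2rb and Csf2rb2), where 1.34% of all genes were. These 2 are paralogs of similar sequence and need not be independent calls. The median log2 fold change of the 13 genes was 1.00. In 9 of the 13 every luteolin library lay above every control library, against 15.9% of all tested genes. All 13 had their highest value in luteolin replicate 2, against 34.0% of all tested genes. In a fit without 1 control library, whichever it was, or without luteolin replicate 1, 0 genes of the whole table reached an adjusted p under 0.05 in edgeR, receptors included, and without luteolin replicate 2 the receptors had 3 (Csf2rb, Csf2rb2 and Csf3r). Without luteolin replicate 3 there were 2 (Csf2rb and Csf3r).

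Csf2rb encodes the common beta chain of the GM-CSF, IL-3 and IL-5 receptors. It had 60.5, 50.6 and 51.3 CPM in the controls and 133, 172 and 124 CPM in the luteolin libraries. The luteolin libraries were all far above the controls, with a log2 fold change of 1.40 (standard error 0.18, edgeR adjusted p = 0.0331). Csf2rb2, its mouse-specific paralog for IL-3, had 29.7 ± 6.44 CPM in the controls and 81.6 ± 18.4 in the luteolin group (SD, n = 3 each), and its log2 fold change was 1.46 (edgeR adjusted p = 0.0437). These paralogs are similar in sequence, and how the counting divided their shared reads is not given, so both values are uncertain. Csf2ra, the alpha chain, had a log2 fold change of 1.10 (edgeR adjusted p = 0.159), and 0.71 without luteolin replicate 2.

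Csf3r, the G-CSF receptor of neutrophils, had 14.8, 12 and 16.2 CPM in the controls and 60.5, 111 and 31.8 CPM in the luteolin libraries. Like its ligand Csf3, it was higher in all luteolin libraries than in the controls, with a log2 fold change of 2.25 (standard error 0.44, edgeR adjusted p = 0.0643), which was 1.71 without luteolin replicate 2. Osmr, the oncostatin M receptor, had 8.84, 13 and 21.4 CPM in the controls and 42.6, 50.9 and 28.5 CPM in the luteolin libraries, a log2 fold change of 1.5 (standard error 0.37, edgeR adjusted p = 0.101) that was 1.32 without luteolin replicate 2. Lifr, its counterpart for LIF, had 4.94 to 17.2 CPM in the controls and 9.97 to 51.2 in the luteolin group, which overlapped (log2 fold change 1.43, standard error 0.66, edgeR adjusted p = 0.282), and without luteolin replicate 2 its log2 fold change was 0.83.

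The shared subunit Il6st (gp130) was abundant, at 169 ± 17.9 CPM in the controls and 218 ± 32.1 in the luteolin group (SD, n = 3 each), with a log2 fold change of 0.37 (edgeR adjusted p = 0.27). Il6ra had a log2 fold change of 0.88, and 0.37 without luteolin replicate 2, in which it reached 75.3 CPM against 31.1 and 34.1 in the other two luteolin libraries. Il10ra had 1.00 and 0.60 without luteolin replicate 2. Csf1r, the CSF-1 receptor of macrophages, had 127 to 171 CPM in the controls and 199 to 307 in the luteolin group, a log2 fold change of 0.73 (edgeR adjusted p = 0.128) that was 0.55 without luteolin replicate 2. The smallest differences were those of Il10rb (0.15), Il27ra (0.23) and Il11ra1 (0.44), whose groups overlapped, and without luteolin replicate 2 they were 0.11, -0.18 and 0.12. Il11ra1 has near-identical copies in the mouse genome and shares exon positions with Ccl27a on the opposite strand, as Il27ra does with Palm3 and Csf1r with Hmgxb3, so these values are uncertain.

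**Figure D4:**
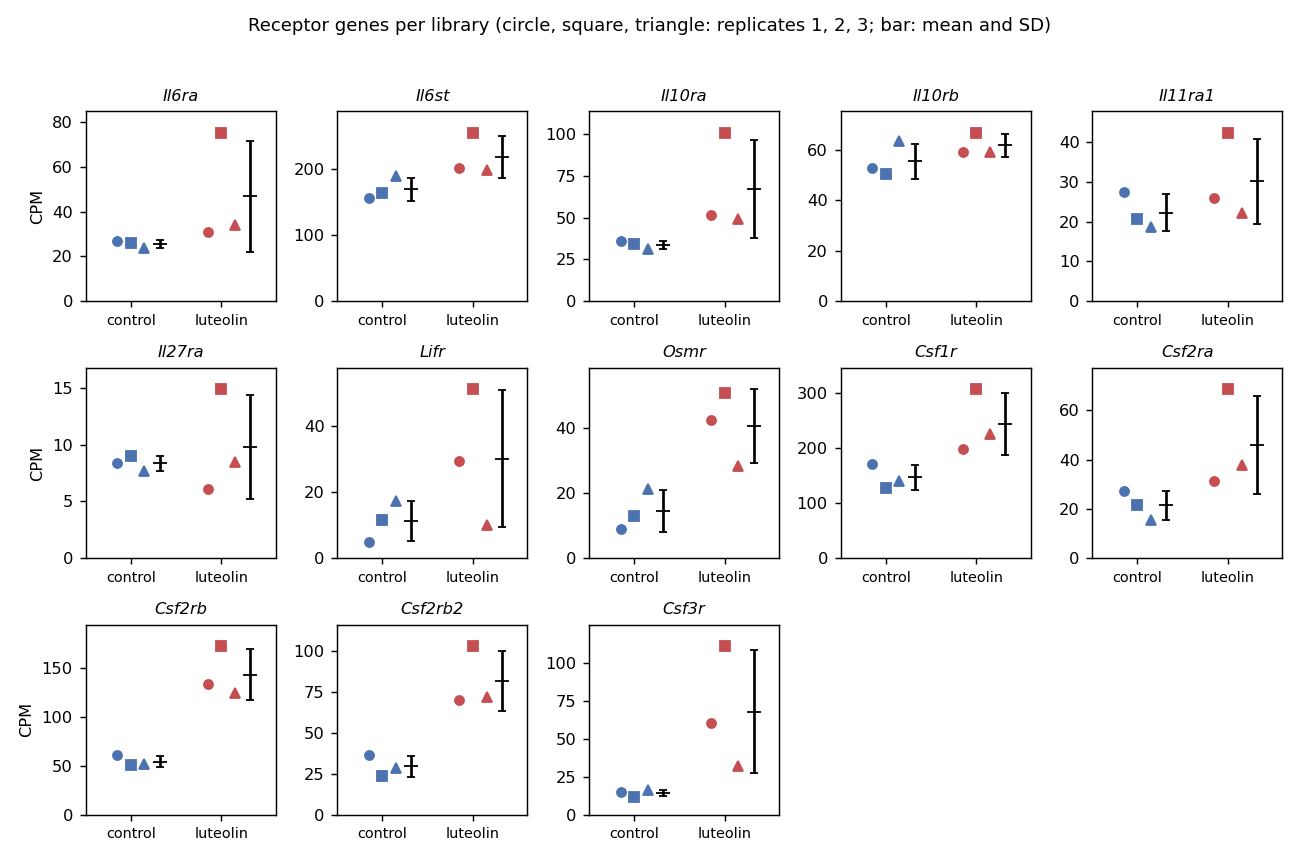
CPM of the 13 receptor genes in each library (linear axes from 0, 1 panel per gene). Circles, squares and triangles are replicates 1, 2 and 3, and the bars are the group mean and SD. The square of the luteolin group, replicate 2, is the highest point in every panel.

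Other cytokines of the same families served as a comparison. Of 19 such genes 13 were tested, with 2 up-regulated (Il12a and Il12b) and 1 down-regulated (Kitl) at the study's threshold, against 11.3% and 1.52% of all tested genes, and a median log2 fold change of 0.14. By edgeR's test 0 of them were called at an adjusted p under 0.05. An unadjusted p under 0.05 was found for 4 of them, against 3061 of all 14963 tested genes. At an adjusted p under 0.05 DESeq2 called 1 of them higher, and voom 1 higher and 1 lower. Over all genes DESeq2 called 1543 higher, and voom 1886 higher and 1311 lower. Il12b, the p40 subunit of IL-12 and IL-23, had 20, 42 and 22 counts in the controls and 103, 433 and 98 counts in the luteolin libraries (log2 fold change 2.72, edgeR adjusted p = 0.103), with a log2 fold change of 1.93 without luteolin replicate 2. Il12a, which encodes p35 and can pair with p40 or with EBI3, had 0, 14 and 4 counts in the controls and 65, 57 and 40 in the luteolin libraries (log2 fold change 3.07, standard error 1.2). Its log2 fold change was 2.46 without control replicate 1 and 4.60 without control replicate 2, and it no longer passed the threshold without control replicate 3, luteolin replicate 1 or luteolin replicate 3. Il23a, which encodes the p19 subunit of IL-23, had 17.5, 24.5 and 26.2 CPM in the controls and 13.5, 8.47 and 16.1 CPM in the luteolin libraries, a log2 fold change of -0.84 (edgeR adjusted p = 0.187) without overlap between the groups. Kitl, the stem cell factor, had 32.6 ± 17 CPM in the controls and 15.4 ± 4.72 in the luteolin group (SD, n = 3 each), and its log2 fold change was -1.08 with equal values of 17.8 CPM in control replicate 1 and luteolin replicate 1. It was -0.60 without control replicate 3. Without control replicate 1 it stayed past the study's threshold, and in the other 5 fits that each left out 1 library it did not. Il31, Il22 and Epo had 0 counts in all 6 libraries, which at this depth allows up to 3 counts in each, or 12 where 1 pair counts as 4.

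Of the 14 signalling genes downstream of these receptors, 5 were up-regulated at the study's threshold (Jak1, Stat5b, Socs1 and Socs3 among them), against 11.3% of all tested genes, and 0 down-regulated, with a median log2 fold change of 0.64. Socs3, a feedback inhibitor induced by STAT3, had 50.9, 37.5 and 29.2 CPM in the controls and 127, 192 and 80.3 CPM in the luteolin libraries, with no overlap (log2 fold change 1.76, standard error 0.36, edgeR adjusted p = 0.0665). Stat5b, which acts downstream of GM-CSF and G-CSF, had a log2 fold change of 1.96, Socs1 of 1.32 and Jak1 of 1.10. Without luteolin replicate 2 the log2 fold change of Stat5b was 1.46 and that of Socs3 was 1.42. Socs1 lost the study's threshold without control replicate 2, without control replicate 3 and without luteolin replicate 2 (0.84), and Jak1 lost it without control replicate 1 (0.96) and without luteolin replicate 2 (0.81). Stat3 itself had 81.3 to 91.5 CPM in the controls and 115 to 225 in the luteolin group, a log2 fold change of 0.89.

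Of 17 genes known to respond to IL-6-type cytokines 16 were tested, with 6 up-regulated at the study's threshold (Bcl3, Lcn2, Saa3, Hp, Lbp and Orm1), against 11.3% of all tested genes, and 0 down-regulated. All 16 had a log2 fold change above 0, as 7383 of all 14963 tested genes had, and the median was 1.64. Saa3, an acute-phase protein made by macrophages and stromal cells, had 3.36, 3.68 and 6.59 CPM in the controls and 283, 278 and 47.3 CPM in the luteolin libraries. It was the 1 gene of the list at an adjusted p under 0.05 (log2 fold change 5.48, edgeR adjusted p = 0.0332). Lbp, which binds lipopolysaccharide, had 80.5, 71.8 and 12.3 CPM in luteolin replicates 1, 2 and 3 against 6.59 to 6.7 CPM in the controls. Lcn2 and Orm1 were highest in luteolin replicate 2, at 69 and 35.3 CPM, against 18.6 and 1.57 CPM in luteolin replicate 1. The log2 fold change of Lcn2 was 4.72, with 3.38 without luteolin replicate 2 and 6.09 without control replicate 3, and that of Orm1 was 5.56, with 2.51 without luteolin replicate 2. Haptoglobin (Hp) overlapped between the groups, since control replicate 3 had 58.1 CPM and luteolin replicate 3 had 37.5. Its log2 fold change of 2.83 was 1.61 without luteolin replicate 2 and 4.72 without control replicate 3, and it lost the study's threshold without control replicate 1 or 2 and without luteolin replicate 1 or 2. Bcl3 had 22.6, 50.0 and 15.6 CPM in the luteolin libraries and a log2 fold change of 1.64, which was 1.03 without luteolin replicate 2. The fibrinogen genes of hepatocytes, Fga, Fgb and Fgg, had at most 4.73 CPM in any library.

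**Figure D5:**
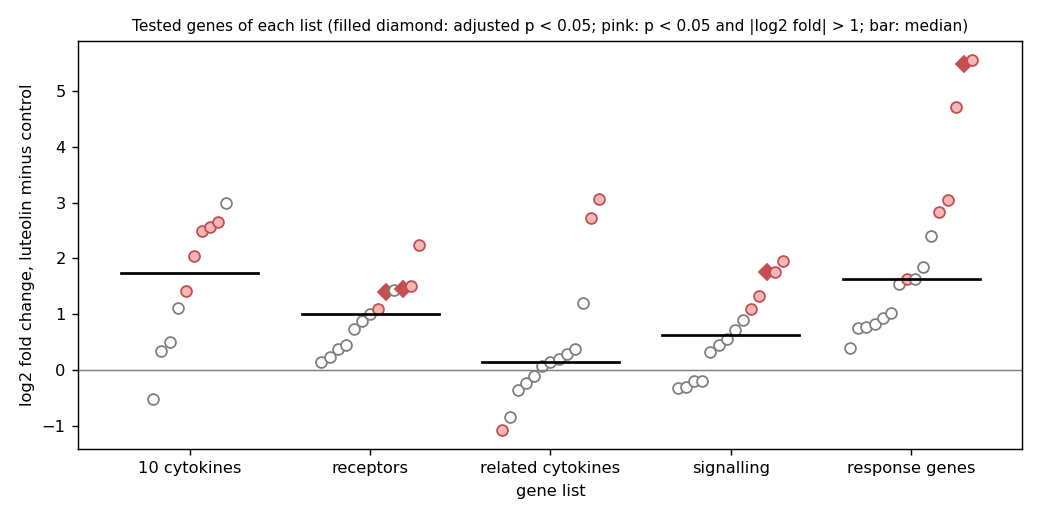
Log2 fold change (luteolin minus control) of the tested genes of the 5 lists. Diamonds are genes at an adjusted p under 0.05 in edgeR's test, pink circles pass the study's threshold, open circles pass neither, and bars are medians. The medians are 1.74 for the 10 cytokines, 1.00 for receptors, 0.14 for related cytokines, 0.64 for signalling genes and 1.64 for response genes.

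Cell type markers also differed between the groups. A gene is called separate where every luteolin library lay above every control library, as for 15.9% of all tested genes. The summed level of 6 neutrophil markers was 2.56 to 4.91 CPM in the controls and 107, 69.7 and 46.9 CPM in luteolin replicates 1, 2 and 3, with 4 of the 6 genes separate, although Ly6g had 0 counts in luteolin replicate 1 and at most 36 in any library. For 6 macrophage markers the sum was 651 to 733 CPM in the controls and 1066 to 1461 in the luteolin group, with 4 of 6 separate, and for 6 T-cell markers 7.58 to 9.95 and 31.2 to 57.7 CPM, with 6 of 6 separate. The 5 fibroblast markers summed to 814 to 1013 and 1312 to 3165 CPM (4 of 5 separate), the 5 mast cell markers to 7.57 to 13.7 and 28.1 to 94.4 (5 of 5), the 5 dendritic cell markers to 117 to 128 and 171 to 278 (3 of 5), and the 4 B-cell markers to 2.52 to 4.71 and 6.63 to 24 (2 of 4). Most of the dendritic cell sum was Itgax, at 87.7 CPM on average in the controls and 194 in the luteolin group. Zbtb46 and Clec9a overlapped, and Zbtb46 had 36.3, 26.9 and 28.3 CPM in the controls and 27.7, 23.9 and 21.4 CPM in the luteolin libraries. Of the 6 keratinocyte markers 5 were separate, with Krt5, Krt14, Krt1 and Dsg3 at 0 counts in the 3 controls. The 4 endothelial and the 6 hepatocyte markers overlapped in their sums, at 75.1 to 93.9 and 91.6 to 236 CPM and at 45.6 to 130 and 74.5 to 177 CPM. The most abundant markers were C1qa for macrophages (212 CPM on average in the controls, 368 in the luteolin group), S100a9 for neutrophils (1.8 and 46.7), Cd3g for T cells (2.06 and 10.3) and Col1a1 for fibroblasts (397 and 1052). C1qa overlapped between the groups, with 256 CPM in control replicate 1 and 241 CPM in luteolin replicate 1, and reached 502 CPM in luteolin replicate 2. Il6, Osm, Csf3 and the neutrophil sum were each highest in luteolin replicate 1 and lowest of the luteolin libraries in replicate 3. Of the neutrophil markers S100a9 alone had this order, and it was the largest part of the sum in each luteolin library. Cxcr2 had 11.2, 30.9 and 4.37 CPM in luteolin replicates 1, 2 and 3, and Ltf had 0.359, 0.191 and 4.57 CPM. S100a8 and Mmp8 were highest in luteolin replicate 1 but lowest in replicate 2, and Ly6g was highest in replicate 3. The part of these cell types in the cytokine values was not tested.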

How the data were processed

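RNA-seq libraries from H22 tumours were analysed, 3 of the control group and 3 of the group given luteolin at 200 mg/kg. The authors deposited whole-number estimated counts per gene symbol, not scaled between libraries, and 0 columns were left out. The submitters' processing notes name bcl2fastq 2.0, HISAT2, StringTie and DESeq2 and the builds mm39 and rn6, without roles, and the counting settings and strand are not given in the sources used here. The labels and the paper name different extraction and library kits. No positions were taken from the deposited table.

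Groups were compared with the quasi-likelihood test of edgeR 4.0.16 in R 4.3.3, after filterByExpr and TMM, without covariates, and two-sided p values were adjusted over the 14963 genes tested by the Benjamini-Hochberg method. The standard error is the log2 fold change divided by the square root of the F statistic. Log2 CPM used a prior count of 2. The length is that of the longest GENCODE M21 transcript, for 21053 of 21720 symbols. Ratios within a library were compared by exact permutation tests, of which 3 were made. The pipeline was tested on simulated data.

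The 10 genes and all lists were chosen by hand with earlier results of these data known. The genes named are the 10 cytokines, all receptors, the genes of the other lists at the study's threshold or, up to 4, with the smallest p, the nearest gene of each cytokine, and the top gene of marker lists. Genes named beyond this rule (Il34, Il31, Il22, Epo, Stat3, Fga, Fgb, Fgg, overlapping genes and single markers) were chosen after their values were seen. The values of 1 signalling gene are not reported here. Alternatives were DESeq2 1.42.0, voom of limma 3.58.1 with quality weights, RLE and upper-quartile normalization, other filters on low counts, offsets for GC content and length, values divided by 4, a block for the replicate number, and fits that each leave out 1 library.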

Additional observations from a re-analysis of the deposited data

How the results depend on the processing

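The directions of 9 of the 10 cytokine genes were the same in every alternative run, and Ebi3 was the exception, with -0.52 in voom with sample quality weights, -0.11 with offsets for GC content and length, and -0.48 to 1.03 with 1 library left out. Among receptors Il10rb turned to -0.088 with the offsets, and Il27ra to -0.36 in voom, to -0.16 with the offsets and to -0.18 to 0.48 with 1 library left out. Of the values of single cytokine and receptor genes over all alternatives, 290 kept their direction and their side of an adjusted p of 0.05, 11 lost that call, 33 gained it, 8 changed sign and 3 could not be tested (Il6 and Il10 with the minimum of 10 counts and Il6 with values divided by 4). The cause of these differences was not tested.

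The largest counts at an adjusted p under 0.05 came from DESeq2 and from voom, which also used sample quality weights. DESeq2 was run on the 17790 genes with a count in any library, against 14963 in edgeR. For the 10 cytokines, 0 genes were higher in edgeR, 5 in DESeq2, 6 in voom (with 1 lower) and 1 each with a minimum of 10 counts in every library, with values divided by 4 and with the offsets. For receptors the count of 2 became 7 in DESeq2, 7 in voom and 4 with the offsets, for related cytokines the count of 0 became 1 in DESeq2, 1 in voom (with 1 lower) and 1 lower with the offsets, for signalling genes the count of 1 became 5 in DESeq2, 7 in voom (with 1 lower) and 3 each with the minimum of 10 counts, the division by 4 and the offsets, and for response genes the count of 1 became 7 in DESeq2, 7 in voom and 3 with the offsets. Over all genes, 200 were higher and 28 lower in edgeR, 1543 and 415 in DESeq2, 1886 and 1311 in voom, 345 and 47 with the minimum of 10 counts, 327 and 46 with the division by 4, and 557 and 305 with the offsets. At the study's threshold, related cytokines had 1 gene higher with the minimum of 10 counts and 0 lower in voom and 2 lower with the offsets, signalling genes had 3 higher in voom and 3 with the offsets, and all genes had 498 lower in voom and 463 with the offsets.

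With the replicate number as a block, 0 receptor, 0 signalling and 0 response genes stayed at an adjusted p under 0.05, 34 genes were higher and 1 lower over all genes, 1 related cytokine was higher at the study's threshold, and Il6 no longer passed it (log2 fold change 2.32, unadjusted p = 0.0793 in edgeR). Libraries of the same number correlated at -0.196, -0.092 and 0.063 in their deviations from the group means, and the numbers do not mark pairs in the labels. With 1 library left out, the ranges at an adjusted p under 0.05 were 0 to 1 for the cytokines, 0 to 3 for receptors, 0 to 2 for signalling genes, 0 to 2 for response genes, and 0 to 276 higher and 0 to 36 lower for all genes. At the study's threshold they were 4 to 6 for the cytokines, 4 to 7 for receptors, 1 to 2 higher and 0 to 2 lower for related cytokines, 3 to 6 for signalling genes, 5 to 8 for response genes, and 1139 to 2104 higher and 140 to 305 lower for all genes. Il6, Il10, Il27 and Csf3 lie below 1 CPM in all controls, so their fold changes rest on few counts.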
